A study of Mus musculus with 6 samples.

Results

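The genes described here are 10 genes of the early secretory pathway that carry procollagen out of the endoplasmic reticulum or keep that route supplied. They were chosen by symbol, from knowledge of their function, but with earlier results of these data known. All 10 were found, 1 row each, among the 18124 genes of the deposited count table. They are the transcription factor genes Creb3l1 and Creb3l2, the vesicle coat genes Sar1a, Sec23a, Sec23b and Sec24d, the procollagen receptor gene Mia3, and the KDEL receptor genes Kdelr1, Kdelr2 and Kdelr3. RNA came from mesenchymal stem cells of Col1-GFP mice, in which enhanced green fluorescent protein reports collagen 1. The cells were sorted from quadriceps muscle of untreated male mice (n = 6) as positive for that reporter and for Sca-1, and were used at passage 4. One group of 3 libraries (control medium) came from cells kept for 72 hours in medium conditioned by control bone marrow-derived macrophages from wild-type mice. The other group of 3 (senescent medium) came from cells kept for 72 hours in medium of macrophages made senescent with 300 µM hydrogen peroxide for 3 hours, given again after 3 days, and then cultured for 14 days. Both groups therefore received macrophage products, and no library is from cells in unconditioned medium. Each kind of medium was pooled from 2 collections before use. The labels give neither the age of the mice nor the culture time of the control macrophages, and they do not say that the libraries of a group come from separate mice, so the p-values rest on differences among the 3 libraries of a medium, and these may be only technical.

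Procollagen is folded in the endoplasmic reticulum and leaves it at exit sites, where a protein coat called COPII bends the membrane into a carrier. The GTPase SAR1 starts the coat, SEC23 and SEC24 form its inner layer, with SEC24 binding cargo, and SEC13 and SEC31 form the outer layer. Procollagen is too long for an ordinary COPII vesicle, and the membrane protein TANGO1, the product of Mia3, links it to the coat and helps to form a larger carrier. Resident chaperones that escape with the cargo are returned from the Golgi by KDEL receptors, in vesicles with another coat, COPI. CREB3L1 (OASIS) and CREB3L2 (BBF2H7) are membrane-bound transcription factors that are released by proteolysis in the Golgi, and they are known for driving secretory genes in cells that make much collagen, among them bone-forming and cartilage cells. In muscle, collagen-producing stromal cells such as those sorted here are the main source of fibrillar collagen.

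The libraries held 17228162 to 21659434 estimated counts, and the members had between 841 and 5410 counts in a library. Markers of the labelled cell type and of other cells were read. The stromal list holds the collagen 1 genes and Ly6a, the Sca-1 gene, which the sort selected for. Its level is therefore no independent check of the cell type. All 6 stromal markers (Col1a1, Ly6a, Pdgfra, Col1a2, Dcn and Lum) were listed, with a summed level of 9670 to 9772 CPM (counts per 1000000 counts of a library, TMM-scaled) in control medium and 12890 to 13460 CPM in senescent medium. Without Col1a1 and Col1a2 the other 4 summed to 1454 to 1531 CPM in control and 1437 to 1528 CPM in senescent medium. Of 6 macrophage markers, Ptprc, Adgre1 and Itgam were not listed, and the other 3 summed to 11.4 to 14.1 CPM in control and 14.7 to 19.6 CPM in senescent medium. Of 5 endothelial markers, Cdh5 and Emcn were not listed (the other 3 summed to 23.5 to 26.0 CPM in control and 25.7 to 32.55 CPM in senescent medium), and of 6 myogenic markers only Des was (1.41 to 1.89 CPM in control, 4.33 to 5.86 CPM in senescent medium). Of 5 pericyte and smooth muscle markers, Kcnj8 was not listed, and the other 4 summed to 24.2 to 33.6 CPM in control and 30.1 to 35.2 CPM in senescent medium. The part that these low levels of other cells' markers play in the results was not tested.

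Of the 10 members 7 were higher in senescent medium, 2 were lower and 1 did not pass the threshold, and the changes were small. Kdelr3 rose most, by 34.7%, and the called rises of the other members ran from 6.55% to 18.9%. The inner coat genes Sec23a and Sec23b fell, to 0.892 and 0.9 times their control level. A call is an adjusted p under 0.05 in edgeR's quasi-likelihood test, adjusted over all 14644 genes tested. In this comparison 49.5% of all tested genes were called, 24.6% higher and 24.9% lower. The members were chosen with earlier results of these data known, so their counts beside these shares are no independent test. The median log2 fold change was 0.14 over the members and -0.001 over all tested genes. Libraries of the 2 media did not overlap for 7 members that were higher, against 27.8% of all tested genes, and for 1 that was lower (Sec23a), against 28% of them. With libraries scaled by their totals alone, 4 members were higher and 2 lower, while over all genes 2589 were higher and 4813 lower, against 3607 and 3644 with TMM scaling. In bulk RNA, a change in the share of cells that express a gene and a change in RNA per cell cannot be told apart.

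**Figure D1:**
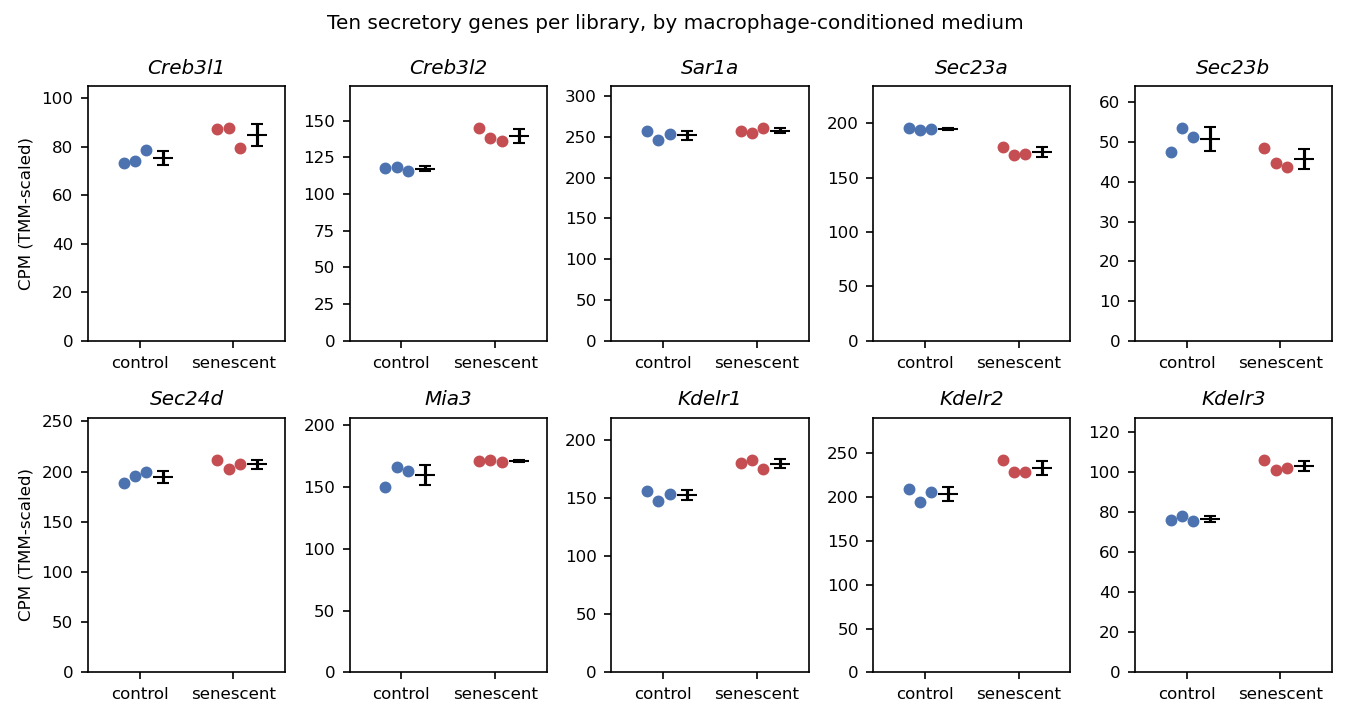
Level of each of the 10 genes in every library, in TMM-scaled CPM on a linear axis from 0. Points are the 3 libraries per medium, and the bar beside them is their mean with its SD; the clearest separation is that of Kdelr3, at 75.5 to 78.2 CPM in control and 101 to 106 CPM in senescent medium.

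**Figure D2:**
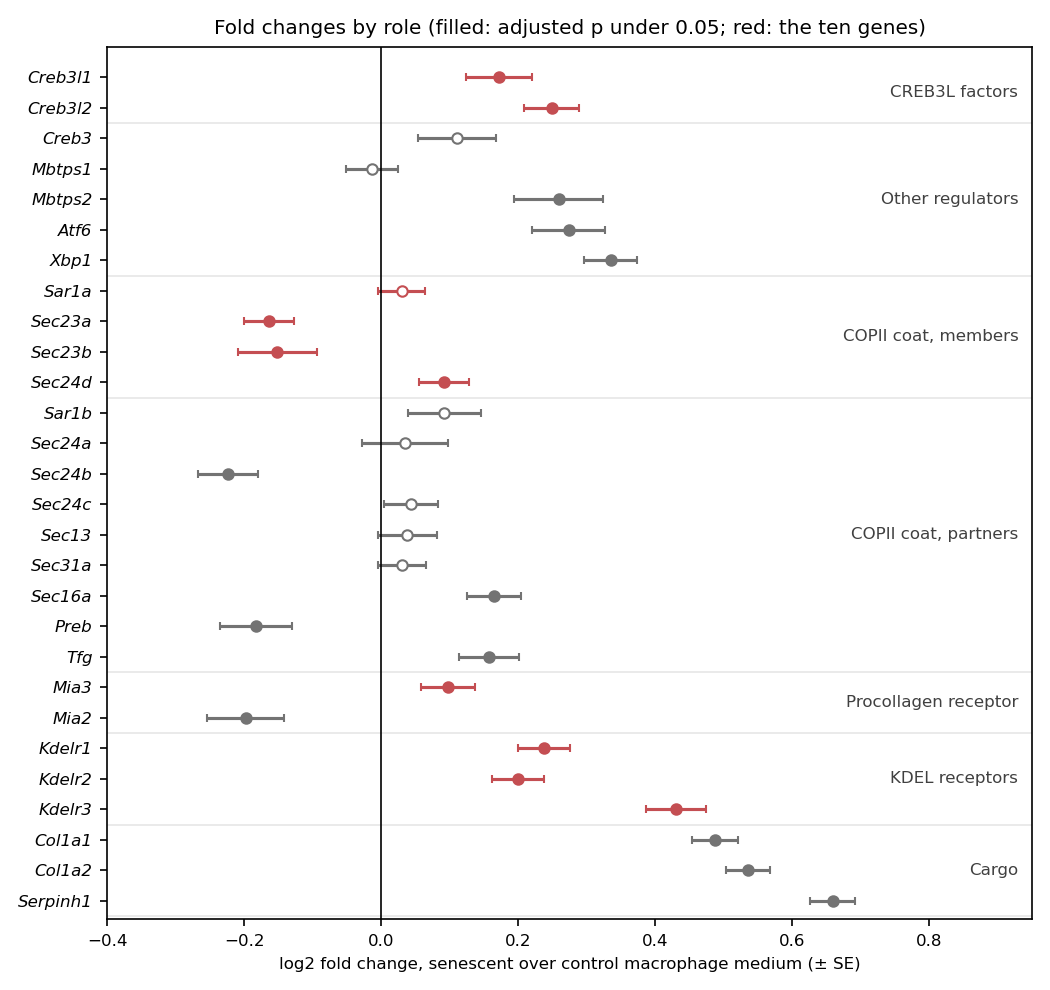
Log2 fold change of senescent over control medium, with its standard error, for the 10 genes (red) and for named partners and cargo (grey), by role. Filled points passed an adjusted p of 0.05; the coat genes lie between -0.22 and 0.17, the KDEL receptors between 0.20 and 0.43, and the collagen genes with their chaperone between 0.49 and 0.66.

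The promoters of these genes were set side by side, and the motifs counted were picked after the sequences had been seen, so that the counts describe these promoters and support nothing. The sequence TGACGT is the core that many basic leucine zipper factors, the CREB and ATF families among them, recognise, and TGACGTGG, which contains it, is the core of the element bound by ATF6 and XBP1. RefSeq promoter sequences of build GRCm38.p6, from 250 bases before to 50 bases after each start, were at hand for 8 members, all but Creb3l1 and Kdelr2. TGACGT, on either strand, was found in a promoter of 7 of the 8: Creb3l2, Kdelr3, Mia3, Sar1a, Sec23a, Sec23b and Sec24d. It was present in 7.51% of all 32851 promoters of that length and in a promoter of 13.3% of the 10300 tested genes that have one. TGACGTGG was found in 3 members, 2 of them called higher and 1 called lower, against 0.676% of all promoters and 1.04% of the tested genes that have one. The palindrome TGACGTCA, which holds TGACGT on both strands, was found in none of the 8 (1.79% of all promoters), nor was the endoplasmic reticulum stress element, ERSE (0.119%). The 30 bases round the matches of 6 of these genes are given here on the strand that reads TGACGT, which stands in capitals.
Sec24d, chr3:123267458-123267487, plus strand: cgcccgggcgccTGACGTggcactagcaac
Kdelr3, chr15:79516368-79516397, minus strand: ttggccgcgcggTGACGTggcggggcggcc
Mia3, chr1:183369634-183369663, minus strand: ctgagcccttgcTGACGTgtcactcgcagc
Sec23b, chr2:144556208-144556237, plus strand: ggcgccgcgaaaTGACGTttcggagcggtg
Creb3l2, chr6:37442327-37442356, minus strand: ggcgttccccagTGACGTaaaagaccctct
Sar1a, chr10:61680174-61680203, minus strand: gggcctaaggagTGACGTacgctcggggtg
Sar1a, chr10:61680299-61680328, plus strand: cagggaggggcgTGACGTacatccggcgcg
Counted from the first base of each match as it lies on the gene's own strand, the core was 26 bases before the start of Sec24d, 28 before that of Kdelr3 (in reverse orientation), 86 before that of Mia3, 196 before that of Creb3l2 and 9 before that of Sec23b. Sar1a had a match 99 bases before its start, in reverse orientation, and another at base 27 after it. A further promoter sequence at hand for Sec23b, from another start, did not hold the core.

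The 250 bases before the start are given in full for the member with the largest rise (Kdelr3), for its relative without the core (Kdelr1), for the cargo-binding coat gene Sec24d and for the procollagen receptor gene Mia3. All read in the direction of the gene, with TGACGT or its reverse complement in capitals.
Kdelr3, chr15:79516158-79516407, plus strand: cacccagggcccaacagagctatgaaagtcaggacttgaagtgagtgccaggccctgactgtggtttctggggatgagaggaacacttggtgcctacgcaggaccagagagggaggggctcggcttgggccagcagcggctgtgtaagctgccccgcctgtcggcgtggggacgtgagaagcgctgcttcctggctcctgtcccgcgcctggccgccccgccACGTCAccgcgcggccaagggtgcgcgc
Kdelr1, chr7:45872590-45872839, plus strand: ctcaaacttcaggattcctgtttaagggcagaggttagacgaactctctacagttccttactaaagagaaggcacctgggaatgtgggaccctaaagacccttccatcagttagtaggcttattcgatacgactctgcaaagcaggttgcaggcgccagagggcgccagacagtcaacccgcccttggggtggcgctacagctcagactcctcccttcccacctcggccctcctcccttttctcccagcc
Sec24d, chr3:123267246-123267495, plus strand: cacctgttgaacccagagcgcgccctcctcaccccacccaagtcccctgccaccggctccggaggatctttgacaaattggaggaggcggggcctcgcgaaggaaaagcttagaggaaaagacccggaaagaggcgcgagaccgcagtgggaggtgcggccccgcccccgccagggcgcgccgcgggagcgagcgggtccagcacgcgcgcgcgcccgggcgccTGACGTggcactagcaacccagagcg
Mia3, chr1:183369566-183369815, minus strand: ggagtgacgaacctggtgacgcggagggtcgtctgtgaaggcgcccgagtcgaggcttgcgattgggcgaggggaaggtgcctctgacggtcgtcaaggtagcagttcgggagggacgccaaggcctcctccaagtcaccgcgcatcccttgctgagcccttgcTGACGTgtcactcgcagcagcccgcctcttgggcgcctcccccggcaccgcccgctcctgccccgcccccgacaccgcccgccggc
Of the members with the core, Creb3l2, Kdelr3, Mia3 and Sec24d were called higher, Sec23a and Sec23b lower, and Sar1a was not called. Kdelr1, which lacks it in this window, was called higher. With 7 of 8 members carrying it, calls cannot be compared between members with and without the core. Outside the members, the core was found in 6 of 15 COPII genes (40.0%) and 9 of 22 COPI and retrieval genes (40.9%). Among tethering and fusion genes it was found in 6 of 16 (37.5%), and on the cargo receptor list in 1 of 18 (5.56%). For procollagen genes the count was 2 of 9 (22.2%), and for retrieval signal genes 6 of 35 (17.1%). For genes of the CREB3 family and stress activators it was 0 of 7. A match is a description of letters and does not show binding.

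Both CREB3L factor genes were higher in senescent medium. Creb3l1 (ENSMUSG00000027230), the factor known for its part in bone collagen, stood at 73.3, 73.9 and 78.5 CPM in control medium and at 87.2, 87.5 and 79.6 CPM in senescent medium. The groups did not overlap, though senescent replicate 3 lay close to control replicate 3. Its log2 fold change was 0.17 ± 0.048 (SE, here and below), with an adjusted p of 0.00367 (edgeR). With library totals in place of TMM it was 0.090 and missed the threshold (adjusted p = 0.116, edgeR). Creb3l2 (ENSMUSG00000038648), known for its part in cartilage secretion, was at 118, 118.5 and 115 CPM in control and at 145, 138 and 136 CPM in senescent medium, with all senescent libraries above all controls. It changed by 0.25 ± 0.040 (adjusted p = 4.48e-06, edgeR). The log2 ratio of Creb3l1 to Creb3l2 within a library was -0.64 ± 0.074 (SD, n = 3) in control and -0.72 ± 0.058 in senescent medium and overlapped between media (exact permutation test, two-sided, p = 0.3; 0.333 adjusted over the 10 ratios compared).

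The genes around these factors are the rest of the CREB3 family, the proteases that release them, and the activators ATF6, XBP1 and IRE1. Of the 8 tested, 4 rose, 1 fell and 3 did not pass, with a median log2 fold change of 0.27. Among all tested genes 24.6% were higher and 24.9% lower. Creb3l3 was listed but too low to test. Xbp1, which encodes a transcription factor spliced on stress of the endoplasmic reticulum, rose from 107 ± 0.294 to 135 ± 1.63 CPM (0.34 ± 0.039), and Ern1, the gene of IRE1, which splices it, from 36.2 ± 2.57 to 46.1 ± 1.58 CPM (0.34 ± 0.061). Atf6 rose from 49.5 ± 0.970 to 59.9 ± 3.37 CPM (0.27 ± 0.053), while Atf6b was called lower. The proteases that cut CREB3L factors and ATF6 in the Golgi differed: Mbtps2, the gene of the site-2 protease, changed by 0.26 ± 0.065 (adjusted p = 0.00129, edgeR), and Mbtps1, that of the site-1 protease, by -0.013 ± 0.038 (adjusted p = 0.798). Creb3 had 58.5 ± 1.29 and 63.1 ± 6.11 CPM (adjusted p = 0.111, edgeR; 0.03125 without senescent replicate 2). Splicing and cleavage, through which these factors become active, are not measured by gene counts.

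The coat genes did not move together. Sar1a (ENSMUSG00000020088), the GTPase that starts COPII assembly, stood at 257, 246 and 253 CPM in control and at 257, 254 and 260.1 CPM in senescent medium. The groups overlapped, and the log2 fold change was 0.030 ± 0.034 (adjusted p = 0.492, edgeR) with TMM and -0.051 with library totals. The log2 ratio of Sar1a to Sar1b also overlapped between media, with a difference of -0.061 (exact permutation test, two-sided, p = 0.3). Sec23a (ENSMUSG00000020986), the inner coat subunit that activates the GTPase and that is mutated in a craniofacial bone disorder, was at 195, 194 and 195 CPM in control and at 178, 170.3 and 172 CPM in senescent medium. All senescent libraries lay below all controls, and Sec23a fell by 0.16 ± 0.036 on the log2 scale (adjusted p = 0.000353, edgeR). An antisense gene, Gm17529, overlaps 8.9% of the Sec23a exons in the annotation, and strand use in the counting is not given.

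Sec23b (ENSMUSG00000027429), the paralogue that is mutated in an inherited anaemia, stood at 47.6, 53.4 and 51.2 CPM in control and at 48.6, 44.8 and 43.75 CPM in senescent medium, so that senescent replicate 1 lay above control replicate 1. It changed by -0.15 ± 0.058 (adjusted p = 0.0292, edgeR). This call was lost without control replicate 2 (log2 fold change -0.11, adjusted p = 0.166) or 3 (0.06615), without senescent replicate 2 (0.103) or 3 (0.141), and with DESeq2 (0.0823). The log2 ratio of Sec23a to Sec23b was 1.94 ± 0.089 in control and 1.92 ± 0.048 (SD, n = 3) in senescent medium, a difference of -0.014 (exact permutation test, two-sided, p = 0.9).

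Sec24d (ENSMUSG00000039234), the cargo-binding subunit whose loss impairs procollagen export, stood at 188.5, 195 and 199.8 CPM in control and at 211.5, 202 and 208 CPM in senescent medium. The groups did not overlap, but the gap between control replicate 3 and senescent replicate 2 was small. It changed by 0.092 ± 0.037 (adjusted p = 0.0385, edgeR). The call did not hold without control replicate 1 (adjusted p = 0.110) or 2 (0.0709), without senescent replicate 1 (0.143) or 3 (0.0858), with DESeq2 (0.0592), or with library totals (log2 fold change 0.010, adjusted p = 0.838). Of its paralogues, Sec24b fell from 85.4 ± 0.988 to 73.1 ± 0.566 CPM (-0.22 ± 0.044, adjusted p = 8.47e-05, edgeR), while Sec24a and Sec24c, at 0.035 ± 0.063 and 0.043 ± 0.039, were not called. Against the sum of the other 3 Sec24 genes in its own library, a quantity that library scaling does not touch, Sec24d went from a log2 ratio of -0.46 ± 0.037 to -0.33 ± 0.032 (SD, n = 3). The media did not overlap in this ratio, and the exact permutation test gave its smallest possible p of 0.1 (0.167 adjusted over 10 ratios).

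Of 15 tested COPII and exit site genes other than the members, 3 rose (20.0%), 4 fell (26.7%) and 8 did not pass. Over all tested genes 24.6% were higher and 24.9% lower. The median log2 fold change of this list was 0.035. Sec13 (0.038 ± 0.043) and Sec31a (0.030 ± 0.035), the outer coat, were not called, nor was Sar1b (0.092 ± 0.053), and the adapter gene Klhl12, whose ubiquitin ligase modifies the outer coat, had 20.7 ± 1.51 and 19.8 ± 1.29 CPM. The scaffold gene Sec16a, which marks exit sites, rose from 131 ± 2.58 to 146 ± 4.61 CPM (0.17 ± 0.039), and Tfg, which organises carriers near them, from 85.1 ± 2.11 to 94.96 ± 2.35 CPM (0.16 ± 0.043); both missed the threshold with library totals (adjusted p = 0.0702 and 0.143, edgeR). The smallest adjusted p of the list was that of Pdcd6 (0.39 ± 0.058), a calcium-binding partner of the outer coat. Preb, the exchange factor that loads SAR1 with GTP, fell from 56.4 ± 1.04 to 49.7 ± 1.99 CPM (-0.18 ± 0.052), and the ubiquitin ligase scaffold gene Cul3 was called lower as well.

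Mia3 (ENSMUSG00000056050), the procollagen receptor TANGO1, stood at 150.2, 166 and 163 CPM in control and at 171, 172 and 170.1 CPM in senescent medium. The senescent libraries were closely spaced and lay above all controls, of which replicate 1 was the lowest. It changed by 0.098 ± 0.040 (adjusted p = 0.0395, edgeR), a rise of 7.05%. Without control replicate 1 the log2 fold change was 0.054 (adjusted p = 0.220, edgeR), and the call was also lost without senescent replicate 1 (0.0803), 2 (0.104) or 3 (0.0682), with DESeq2 (0.0722) and with library totals (log2 fold change 0.017, adjusted p = 0.741). Mia2, which encodes its partner at exit sites, fell from 50.8 ± 2.72 to 44.2 ± 1.91 CPM (-0.20 ± 0.057, adjusted p = 0.00438, edgeR). The log2 ratio of Mia3 to Mia2 was 1.48, 1.77 and 1.71 in the control libraries and 1.97, 2.01 and 1.88 in the senescent ones, a difference of 0.300 with no overlap (exact permutation test, two-sided, p = 0.1, the smallest it allows; 0.167 adjusted over 10 ratios).

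All 3 KDEL receptor genes were higher in senescent medium, and for each of them all senescent libraries lay above all controls. Kdelr1 (ENSMUSG00000002778) stood at 156, 148 and 153.5 CPM in control and at 181, 183 and 176 CPM in senescent medium, and changed by 0.24 ± 0.038 on the log2 scale (adjusted p = 3.99e-06, edgeR). Kdelr2 (ENSMUSG00000079111), whose loss is linked to a brittle bone disorder, stood at 209, 194 and 206 CPM in control and at 242, 228 and 228 CPM in senescent medium, and changed by 0.20 ± 0.038 on the log2 scale (adjusted p = 5.87e-05, edgeR). Kdelr3 (ENSMUSG00000010830) was the lowest of the 3 in counts, at 76.2, 78.2 and 75.5 CPM in control and at 106, 101 and 102 CPM in senescent medium. Its log2 fold change of 0.43 ± 0.043 (adjusted p = 9.34e-10, edgeR) was the largest of the members, and 12.8% of all tested genes rose by more. In the 13 other fits tried, the Kdelr3 log2 fold change lay between 0.35 and 0.45. Kdelr1, Kdelr2, Creb3l2 and Sec23a, like Kdelr3, kept their calls in all of those fits.

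Relative to both other receptor genes, Kdelr3 was higher in every senescent library than in any control library. Its log2 ratio to Kdelr1 was -1.04, -0.92 and -1.02 in the control libraries and -0.77, -0.86 and -0.78 in the senescent ones, a difference of 0.19. Its log2 ratio to Kdelr2 was -1.46, -1.31 and -1.45 in control and -1.19, -1.18 and -1.15 in senescent medium, a difference of 0.23. Neither ratio overlapped between media, and for both the exact permutation test (two-sided) gave p = 0.1, its smallest value with 3 libraries against 3, which is 0.167 adjusted over 10 ratios. The ratio of Kdelr2 to Kdelr1 did overlap, with a difference of -0.040 (exact p = 0.3).

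**Figure D3:**
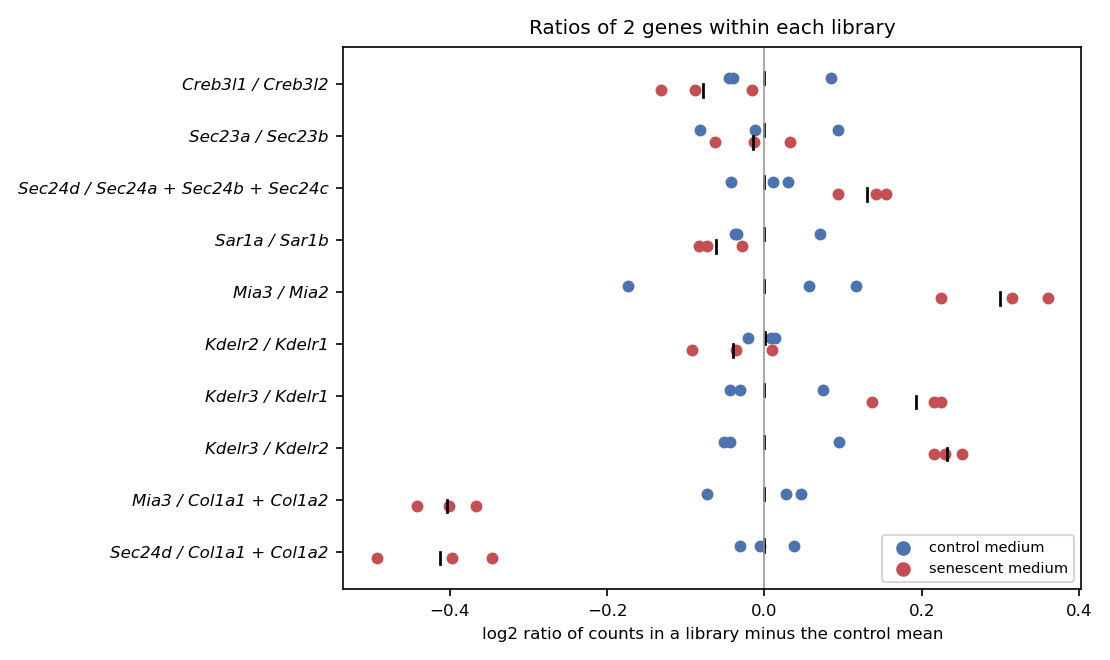
Log2 ratio of the counts of 2 genes, or of a gene and a sum of genes, in each library, shown as the deviation from the control mean of that ratio. Points are libraries and short bars group means; Kdelr3 against its relatives, Sec24d and Mia3 against theirs, and the ratios to the collagen 1 genes separate the media, while Sec23a to Sec23b, with a difference of -0.014, does not.

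Levels of different genes were compared only per length, as TPM (counts divided by merged exon length and scaled to the same sum in each library). TPM lacks the TMM factor and serves here to order genes within a library, not to compare media. Mia3 was left out of the order because the annotation at hand holds only partial models of it. In control medium Kdelr2 was highest (387.5 ± 13.4 TPM, SD, n = 3), followed by Kdelr1 (284 ± 6.23), Sar1a (235 ± 4.05), Kdelr3 (189.7 ± 4.55), Sec23a (140.3 ± 1.54), Sec24d (107 ± 4.44), Creb3l1 (101 ± 4.79), Creb3l2 (56.3 ± 0.787) and Sec23b (28.1 ± 1.93). Neighbours in this order did not overlap over the 3 libraries, apart from Sec24d and Creb3l1. In senescent medium Kdelr3 (234 ± 4.39) stood above Sar1a (219.7 ± 2.65), and Sec24d and Creb3l1 again overlapped. The order depends on the length used, at the top and further down. With coding length Sar1a came first, and Creb3l2 stood above Sec24d and Creb3l1. With the longest transcript Sar1a stood above Kdelr1, and Sec24d above Sec23a. Sec23b was last with every length tried.

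Within families, the shares of summed TPM describe which paralogue held most of the level in these cells when merged exon length was used. The shares depend on that length, and their SD covers only the spread among libraries. Sar1a and Sar1b, for example, have merged exons of 3740 and 1255 bases but an equal coding length of 594 bases. Sec23a held 83.3% ± 0.851 of the Sec23 level in control and 83.2% ± 0.464 (SD, n = 3) in senescent medium. Sec24d was the most abundant Sec24 gene, with 43.5% ± 0.797 in control and 45.9% ± 0.481 in senescent medium, ahead of Sec24c with 30.15% ± 0.839 and 30.7% ± 0.545. Sar1a held 63.9% ± 0.981 and 62.95% ± 0.464 of the Sar1 level. Of the KDEL receptor level Kdelr3 held 22.03% ± 0.902 in control and 24.7% ± 0.302 in senescent medium, and Kdelr2 44.97% ± 0.756 and 42.9% ± 0.545.

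The collagen 1 genes and Serpinh1 had larger fold changes than any member. Of 12 tested genes for fibrillar procollagen chains and their chaperone Serpinh1, 9 rose (75.0%), 2 fell (16.7%) and 1 did not pass. Over all tested genes the shares were 24.6% and 24.9%. The median log2 fold change of the 12 was 0.49. Col1a1 went from 5361 ± 69.8 to 7516 ± 228.5 CPM (0.49 ± 0.033) and Col1a2 from 2856 ± 9.94 to 4139 ± 108 CPM (0.54 ± 0.032). Serpinh1, the collagen chaperone HSP47, rose from 1078 ± 31.2 to 1702 ± 17.3 CPM (0.66 ± 0.032), and the type V chains Col5a1 and Col5a3 changed by 0.79 ± 0.034 and 1.35 ± 0.065. Against the summed counts of Col1a1 and Col1a2 in the same library, Mia3 stood at a log2 ratio of -5.76, -5.64 and -5.66 in control and of -6.05, -6.13 and -6.09 in senescent medium, a difference of -0.40. Sec24d stood at -5.43, -5.41 and -5.36 in control and at -5.75, -5.89 and -5.80 in senescent medium, a difference of -0.41. Both ratios were lower in every senescent library than in any control library (exact permutation test, two-sided, p = 0.1, the smallest it allows).

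Genes of the proteins that KDEL receptors retrieve were mostly called higher. Of 43 tested genes whose protein ends in a retrieval signal (KDEL or a close variant), 26 rose (60.5%) and 4 fell (9.30%). The other 13 did not pass. Over all tested genes the shares were 24.6% and 24.9%. The list had a median log2 fold change of 0.20. It was read from coding ends alone and holds some genes of proteins that do not enter the endoplasmic reticulum, such as Pfkp. Among the 11 with KDEL itself 6 rose (54.55%) and 3 fell (27.3%). Hsp90b1 and Hspa5, the main chaperones of the endoplasmic reticulum, both rose, Hsp90b1 from 688 ± 19.6 to 1185 ± 21.7 CPM (0.79 ± 0.033), Hspa5 from 513 ± 7.71 to 868.5 ± 17.6 CPM (0.76 ± 0.033). Calr, a calcium-binding chaperone, changed by 0.46 ± 0.035, and P4hb, a disulfide isomerase that is also a subunit of collagen prolyl hydroxylase, by 0.48 ± 0.032. P3h1, a collagen prolyl hydroxylase of another kind, and the mannosidase-like gene Edem3, both with the KDEL signal, were called lower.

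Most cargo receptor genes of the same route were called higher. Of 23 tested genes of cargo receptors and related membrane proteins, 16 rose (69.6%), 4 fell (17.4%) and 3 did not pass. Over all tested genes the shares were 24.6% and 24.9%. Yif1a, Yif1b and Yipf5, counted among the 16, belong to the related proteins. The median log2 fold change of the list was 0.20. Lman1 and Mcfd2, which together export clotting factors, both rose, Lman1 from 167.5 ± 2.39 to 222 ± 7.10 CPM (0.40 ± 0.037), Mcfd2 from 253 ± 6.62 to 362 ± 3.39 CPM (0.52 ± 0.034). Surf4, an export receptor for soluble proteins, rose from 399 ± 3.54 to 493 ± 11.5 CPM (0.30 ± 0.033). Tmed1 went the other way, from 41.6 ± 2.20 to 20.97 ± 0.920 CPM (-0.99 ± 0.067, adjusted p = 1.15e-13, edgeR).

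Genes of the COPI coat and of the machinery that docks and fuses vesicles had medians near that of all genes. Of 24 COPI and retrieval genes 9 rose (37.5%), 5 fell (20.8%) and 10 did not pass (median 0.048). Over all tested genes 24.6% rose and 24.9% fell. The smallest adjusted p were those of the coat subunits Copz2 (0.41 ± 0.049) and Cope (0.30 ± 0.045). Copz2 rose from 54.0 ± 0.742 to 71.9 ± 2.53 CPM. Of 18 tether and fusion genes 5 rose (27.8%), 3 fell (16.7%) and 10 did not pass (median 0.010). They were led by the Golgi GTPase gene Rab6a (0.23 ± 0.038) and the stacking protein gene Gorasp1 (0.28 ± 0.063). With library totals 2 of these 18 were higher and 5 lower, while over all 14644 tested genes 2589 were higher and 4813 lower.

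**Figure D4:**
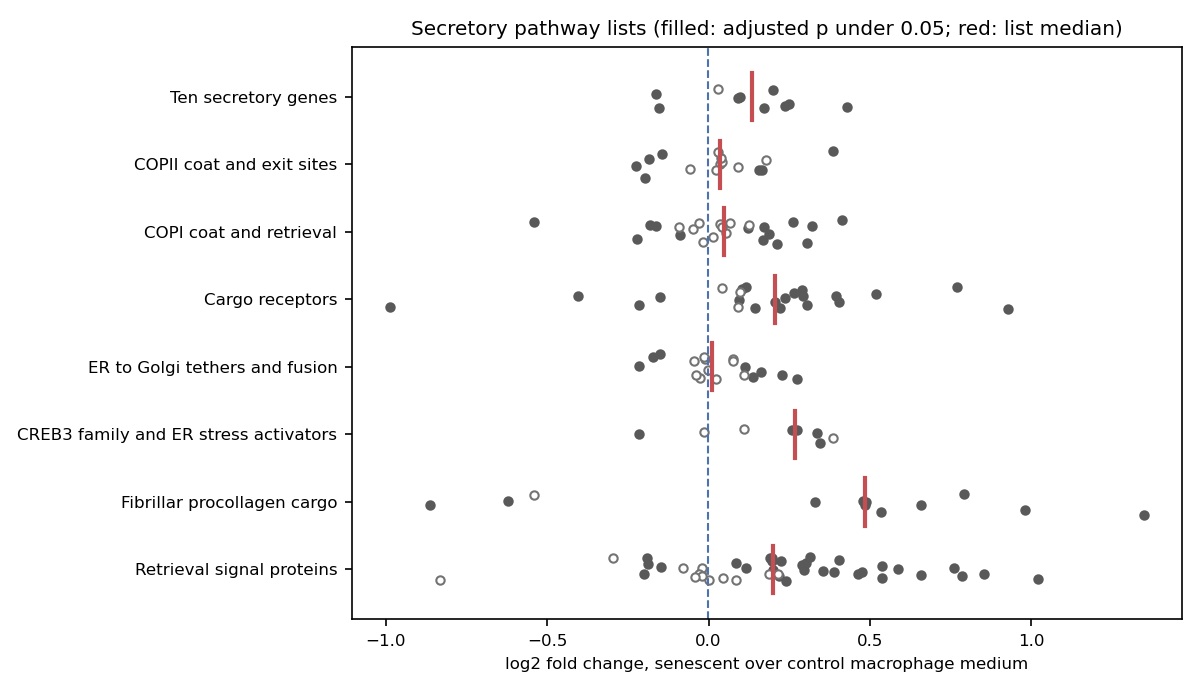
Log2 fold change of each tested gene of the 10 members and of the 7 pathway lists, senescent over control medium. Filled points passed an adjusted p of 0.05, red bars are list medians (0.14 for the members, 0.49 for the procollagen list) and the dashed line is the median of all tested genes; vertical scatter within a row has no meaning.

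The tested genes whose profile over the 6 libraries was nearest to a member's, by Euclidean distance of log2 CPM centred on the control mean, were Ccni (0.0487) and Hgs (0.0552) for Creb3l1, and Gmfb (0.0138) and Lats2 (0.0314) for Mia3. As their choice by distance entails, Gmfb and Lats2 shared the low control replicate 1 of Mia3. They had 163 and 130.2 CPM there, against 177 to 181 and 140.2 to 141.5 CPM in the other controls.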

How the data were processed

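Bulk RNA from 6 libraries, 3 per medium, was sequenced from both fragment ends (150 bp), as the labels' protocols state. The deposited values are estimated counts per Ensembl gene, not normalized, from the authors' processing. STAR, DESeq2 and build mm39 are named with no role per the submitters' processing notes. Which tool counted the reads, with which annotation and whether by strand, is not given in the sources used here. Symbols (18092 of 18124 identifiers) and exon lengths came from GENCODE M21 on GRCm38, so no coordinates of the counts are given.

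Counts were rounded and fitted with edgeR 4.0.16 in R 4.3.3. The test was the quasi-likelihood F-test (robust, two-sided), with TMM factors, an expression filter and medium as the only term. Benjamini-Hochberg adjustment ran over 14644 genes, with a threshold of 0.05. The fit was also run on simulated counts in which few genes changed. That run does not show how the fit performs where 49.5% of tested genes are called. Standard errors were derived as |log2 fold change| over the root of the F statistic. CPM is scaled by TMM and given with the SD of 3 libraries. Ratios within a library used a pseudocount of 0.5 and an exact permutation test over libraries. Alternatives were DESeq2 1.42.0, limma-voom (limma 3.58.1), RLE factors, library totals, other filters, a threshold of 0.01, the replicate number as a block, and each library left out.

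The members, lists and tests were chosen with earlier results of these data known, and the promoter motifs after the sequences had been seen. Besides the 10 members, the named genes are a fixed set of partners, the 2 smallest adjusted p of each list, and the 2 profiles nearest to Creb3l1 and to Mia3; further genes named only by their call, Pfkp and Edem3 among them, were picked after their values were seen. The list of retrieval signals was read by translating the ends of GENCODE coding transcripts, in place of the RefSeq proteins first planned. The sequence round 1 promoter match is not reported here.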

Additional observations from a re-analysis of the deposited data

How the results depend on the processing

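With library totals in place of TMM, the count of members higher was 4 (7 with TMM), that of COPII genes higher 1 (3), that of tether and fusion genes 2 higher (5) and 5 lower (3), that of CREB3 family and stress activator genes lower 2 (1), and that of retrieval signal genes lower 8 (4). Of all 14644 genes 2589 were higher and 4813 lower with library totals, against 3607 and 3644 with TMM. With DESeq2, and also at a threshold of 0.01, 5 members were higher in place of 7 and 1 was lower in place of 2. Over all 14644 genes DESeq2 called 3074 higher and 3057 lower, against 3607 and 3644 with edgeR. At 0.01 COPI genes lower were 3 in place of 5, and the count over all genes at 0.01 is not given here. Leaving out 1 library at a time gave 5 to 7 members higher and 1 to 2 lower. Over all genes these fits called 3198 to 3517 higher and 3179 to 3582 lower, of 14886 to 14954 tested. They gave 3 to 6 tether and fusion genes higher and 1 to 3 lower, and 4 to 5 COPI genes lower. Of the members' fold changes under other fits, 112 kept their direction or their side of the threshold and 18 missed it, those of Creb3l1, Sec23b, Sec24d and Mia3. With 3 libraries a group no ratio can pass 0.05, so the p-values say nothing of the stability of the ratios. In size, all 90 differences in ratios under other settings lay within the pooled SD of the libraries from the main value. The replicate block leaves these differences unchanged by construction, and other pseudocounts add little to counts of this size. Only the fits that left out a library could move them. The difference in the ratio of Sec23a to Sec23b, -0.014 with all libraries, was 0.033 without control replicate 1. The deviations of same-numbered libraries from their group means correlated at 0.0187, 0.00189 and 0.0262. Control replicate 1 correlated more with senescent replicate 2 (0.0272). Such values cannot decide whether the replicate numbers pair the libraries by source, which the labels do not say. With the replicate number as a block, 7 members were higher and 2 lower, as without it, and over all genes 3704 were higher and 3698 lower. Per-length levels other than that of Sec23b with coding length moved by more than their SD when another length was used. The lowest count of a member in a library was 841, for Sec23b. The causes of these shifts were not tested.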

Other observations

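The summed TPM of the 44 listed genes with a retrieval signal was set against that of the 3 KDEL receptor genes within each library, a ratio that library scaling does not touch; it was chosen after the data were seen and has no test. The ratio was 11.4, 11.7 and 11.5 in the control libraries and 12.5, 12.6 and 12.8 in the senescent ones, with no overlap.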
